A study of Mus musculus with 8 samples.

Results

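Growth hormone reaches the liver through its receptor, GHR, which signals through the kinase JAK2 to the transcription factors STAT5A and STAT5B. STAT5 bound to DNA drives genes of the growth axis, such as Igf1 and Igfals, and the inhibitors Cish and Socs2, which dampen the same receptor. In rodents growth hormone is secreted in pulses in males and more steadily in females, and this difference, read by STAT5 together with the repressors BCL6 and CUX2, sets much of the sex bias of liver genes. The 10 genes followed here are Ghr, Jak2, Stat5a, Stat5b, Igf1, Igfals, Socs2, Cish, Bcl6 and Cux2, taken by symbol from the 46517 genes of the count table. All 10 were found by their Ensembl identifiers, and all 10 passed the filter on low counts that left 13278 genes for testing.

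Bulk RNA was sequenced from livers of 4 male MøFoxO1-KO mice (replicates 26 to 29) and 4 male WT littermates (replicates 22 to 25), all C57BL/6 and 31 weeks old. MøFoxO1-KO mice carry a floxed FoxO1 gene and the Lyz2-Cre driver, which is active in macrophages and other myeloid cells, and the WT littermates carry the floxed gene without Cre. Both groups had eaten a NASH diet, which induces steatohepatitis (fatty liver with inflammation), for 25 weeks from 6 weeks of age, and were fasted for 16 hours before tissue was taken. The comparison asks how the loss of FoxO1 in myeloid cells changed the transcripts of the whole liver. Because whole tissue was sequenced, fewer cells of a type and less RNA per cell cannot be told apart. Each P value weighs the difference between genotypes against the variation among these 8 mice.

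Total counts lay between 15253218 and 18025481 per mouse. Whole-liver Foxo1, which the Cre driver removes only from myeloid cells, ranged from 303 to 459 normalized counts in WT and from 289.9 to 429 in MøFoxO1-KO livers, with overlap. Hepatocyte markers made up 85249 to 97398 CPM (counts scaled to the library total) in WT and 92376 to 117839 in MøFoxO1-KO livers, and 4 of the 10 were higher and 0 lower at an unadjusted P under 0.05 (edgeR), with a median log2 fold change of 0.38. The summed level of 12 macrophage markers was 257 to 535 CPM in WT and 312 to 1269 in MøFoxO1-KO livers. Of the 12, 7 were higher at an unadjusted P under 0.05 (edgeR), as were 8.65% of all tested genes. No hepatocyte or macrophage marker passed edgeR after Benjamini-Hochberg adjustment. The macrophage sums of MøFoxO1-KO replicates 26 (436 CPM) and 28 (312) lay within the WT range. Those of replicates 27 (792) and 29 (1269) lay above it. WT replicate 23 had the lowest summed level of lymphocyte, endothelial, stellate and macrophage markers among the 8 mice.

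STAT5 dimers bind the palindrome TTCNNNGAA, in which N is any base, so the windows around RefSeq gene starts were searched for it (250 bases before to 50 bases after each start, on GRCm38.p6). Windows were held for 9 of the 10 genes, all but Socs2. Igfals, Bcl6 and Cish held the palindrome, which is 33.3% of the 9, and 9.55% of 27025 genes with a window held it. Genes with several windows, such as Igfals and Bcl6, had more room for a match. Counted by window, 8.3% of all 32851 windows held it. The motif reads the same on both strands, so a search of 1 strand covers both. The stretches below are shown because they carry these matches in an IGF complex gene, a repressor and a feedback inhibitor, and the capitals mark the palindrome. The Igfals stretch (chr17:24878131-24878230, plus strand) ends at the base before a RefSeq start, and 16 of its 100 bases lie in an exon of GENCODE M21. Its last base lies 540 bases before the start of Igfals as counted here, so the stretch is outside the counted gene. The Bcl6 stretch (chr16:23981284-23981483, minus strand) lies within Bcl6 and outside its annotated exons, just before an internal RefSeq start. The Cish stretch (chr9:107296654-107296683, plus strand) lies in an annotated exon and UTR, with matches that begin at bases 1 and 12 counted from the RefSeq start.
Igfals: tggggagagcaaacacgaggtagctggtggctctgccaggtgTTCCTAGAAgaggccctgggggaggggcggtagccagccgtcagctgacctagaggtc
Bcl6: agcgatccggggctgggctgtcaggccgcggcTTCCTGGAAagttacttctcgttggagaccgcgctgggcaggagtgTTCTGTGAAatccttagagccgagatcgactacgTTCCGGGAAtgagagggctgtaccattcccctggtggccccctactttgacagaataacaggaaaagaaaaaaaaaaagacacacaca
Cish: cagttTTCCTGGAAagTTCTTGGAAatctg

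Other windows of the same genes held a TTCTCAGAA match, 236 bases before another Igfals start and 118 bases before another Bcl6 start. A match is a description of letters and not a measured binding site. No match was found in the windows of Ghr, Jak2, Stat5a, Stat5b, Igf1 or Cux2. The genes with a match were not alike in the livers: Igfals was higher in every MøFoxO1-KO mouse than in any WT mouse, whereas Bcl6 and Cish overlapped between the groups.

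None of the 10 members was called by edgeR (a Benjamini-Hochberg adjusted P under 0.05 with a log2 fold change beyond 1.5 in either direction), and 0.188% of the tested genes were (25 of 13278). With no limit on the fold change, 0 of 10 members and 0.294% of tested genes passed in edgeR, whereas 3 of 10 members and 4.42% of genes passed in DESeq2. At an unadjusted P under 0.05 edgeR gave 3 of 10 members, against 16.7% of tested genes. Of these, Igf1 and Igfals were higher in MøFoxO1-KO livers, as were 8.65% of tested genes, and Stat5a was lower, as were 8.06%. The groups did not overlap for 3 members, against 9.71% of tested genes. Igfals was higher in each MøFoxO1-KO mouse than in any WT mouse, a pattern of 5.00% of tested genes, and Stat5a and Stat5b were lower in each, a pattern of 4.71%. The median log2 fold change was -0.30 over the 10 members and -0.01 over all tested genes. Counts were normalized with the TMM factors of edgeR, and folds are of MøFoxO1-KO against WT.

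**Figure D1:**
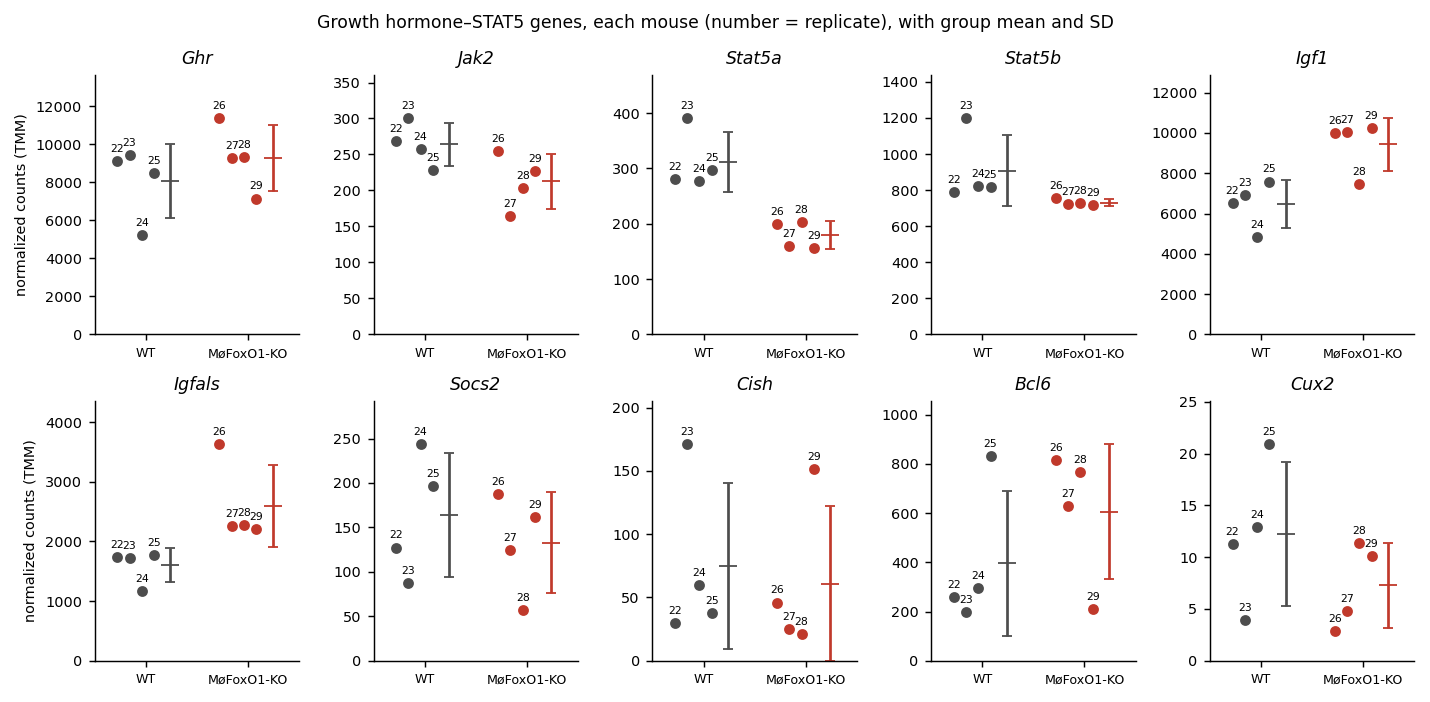
Normalized counts (vertical axis, starting at 0) of the 10 genes in each WT (gray) and MøFoxO1-KO (red) mouse, numbered by replicate, with the group mean and SD beside the points. Stat5a and Stat5b lie lower and Igfals lies higher in all 4 MøFoxO1-KO mice, and Cish and Bcl6 show single mice far from the rest of their group.

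Ghr (chr15:3317760-3583492, GRCm38, minus strand) encodes the growth hormone receptor. It had 9145, 9433, 5216 and 8509.9 normalized counts in WT replicates 22 to 25 and 11389.6, 9275, 9355 and 7148 in MøFoxO1-KO replicates 26 to 29. WT replicate 24 was the lowest and MøFoxO1-KO replicate 26 the highest, and the groups overlapped. This gave a log2 fold change of 0.20 ± 0.21 (the error here and below is the standard error of the fit), with a Benjamini-Hochberg adjusted P of 0.670 in edgeR, and it became 0.04 with WT replicate 24 left out and 0.09 with MøFoxO1-KO replicate 26 left out.

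Jak2 (chr19:29251828-29313080, plus strand) encodes the tyrosine kinase bound to the receptor. Its normalized counts were 269, 301, 258 and 229 in WT replicates 22 to 25 and 255, 165, 203 and 227 in MøFoxO1-KO replicates 26 to 29. MøFoxO1-KO replicates 27, 28 and 29 lay below every WT mouse, and replicate 26 lay among the WT mice. The fitted log2 fold change of -0.31 ± 0.16 did not pass the test (Benjamini-Hochberg adjusted P = 0.356, edgeR), and it was -0.20 without MøFoxO1-KO replicate 27.

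The transcript that differed most by its P value was Stat5a (chr11:100859351-100885169, plus strand), which encodes 1 of the paired STAT5 proteins. It had 280.1, 391, 278 and 297 normalized counts in WT replicates 22 to 25 and 199, 160.0, 203 and 156 in MøFoxO1-KO replicates 26 to 29. All 4 MøFoxO1-KO mice were below all 4 WT mice, and WT replicate 23 stood well above the other WT mice. Group means were 311 ± 53.9 normalized counts in WT and 179.5 ± 25.2 in MøFoxO1-KO livers (SD, n = 4 each), a ratio of 0.576 (exact two-sided permutation test, P = 0.0286, the smallest that 4 mice against 4 allow). On the log2 scale the fold change was -0.79 ± 0.16 (edgeR, unadjusted P = 0.000535, and 0.0851 after Benjamini-Hochberg adjustment), and 0.61% of tested genes had a smaller P. DESeq2 put Stat5a past the threshold (Benjamini-Hochberg adjusted P = 0.00194), and leaving out each mouse in edgeR gave adjusted P values between 0.0634 and 0.279.

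Stat5b (chr11:100780731-100850724, minus strand) is the neighbouring gene and encodes the STAT5 protein that prevails in liver. WT replicates 22 to 25 had 791, 1201, 822 and 816 normalized counts, and MøFoxO1-KO replicates 26 to 29 had 758, 725, 726 and 715. The groups did not overlap, but the gap was small and WT replicate 23 was far above the rest (exact two-sided permutation test, P = 0.0286). Stat5b had a log2 fold change of -0.31 ± 0.14 (Benjamini-Hochberg adjusted P = 0.315, edgeR), and of -0.15 without WT replicate 23.

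Stat5a lay lower relative to Stat5b within each MøFoxO1-KO mouse. The log2 ratio of Stat5a to Stat5b, from TPM (counts scaled by the summed exon length of each gene and by their total), ran from -1.98 to -1.83 in WT and from -2.57 to -2.20 in MøFoxO1-KO livers. The mean difference was -0.50 and the groups did not overlap (exact two-sided permutation test, P = 0.0286, and 0.143 after Benjamini-Hochberg adjustment over 5 ratios). The last 72 bases of Stat5a overlap Stat3, which lies on the opposite strand and had 818 to 1319 counts, and the strand setting of the counting is not given in the sources used here. Stat3 itself had a log2 fold change of 0.01.

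Within each group, summed macrophage markers in CPM ran opposite to Stat5a in TMM-normalized counts. In both groups the order of the mice by Stat5a was the exact reverse of their order by summed macrophage markers: 535, 428, 386 and 257 CPM in WT replicates 24, 22, 25 and 23, listed from the lowest to the highest Stat5a, and 1269, 792, 436 and 312 in MøFoxO1-KO replicates 29, 27, 26 and 28, listed likewise. On these scales such a reversed order in both groups was found for 2 of the 60 pairs of a member and a marker list, the other being Cish with endothelial markers. With Stat5a in CPM as well, the order was not an exact reverse in either group. Stat5a then was 17.9, 18.6, 19.5 and 23.6 CPM in WT replicates 22, 25, 24 and 23. It was 8.79, 8.86, 11.5 and 12.4 CPM in MøFoxO1-KO replicates 27, 29, 26 and 28. The part of macrophage content in the Stat5a difference was not tested.

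Igf1 and Igfals encode circulating products of the pathway. Igf1 (chr10:87858265-87937042, plus strand) encodes insulin-like growth factor 1, the hormone that the liver releases in response to growth hormone. WT replicates 22 to 25 had 6516, 6930.3, 4831 and 7591 normalized counts, and MøFoxO1-KO replicates 26 to 29 had 10001, 10028, 7479 and 10249. Only MøFoxO1-KO replicate 28 overlapped the WT mice, lying just under WT replicate 25. Group means were 6467 ± 1177 in WT and 9439 ± 1311 in MøFoxO1-KO livers (SD, n = 4 each), a ratio of 1.46 (exact two-sided permutation test, P = 0.0571). Fitted over all genes, the log2 fold change was 0.55 ± 0.17, with a Benjamini-Hochberg adjusted P of 0.176 in edgeR and of 0.0436 in DESeq2.

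Igfals (chr17:24878770-24882008, plus strand) encodes the acid-labile subunit, which holds IGF1 and its binding protein in a stable complex in blood. It had 1744, 1725, 1176 and 1770.1 normalized counts in WT replicates 22 to 25 and 3631, 2264, 2270.1 and 2203 in MøFoxO1-KO replicates 26 to 29. Every MøFoxO1-KO mouse was above every WT mouse, with replicate 26 far above the other 3. The mean was 1.62-fold higher in MøFoxO1-KO livers (exact two-sided permutation test, P = 0.0286), and the log2 fold change was 0.69 ± 0.20, with a Benjamini-Hochberg adjusted P of 0.152 in edgeR and of 0.0297 in DESeq2.

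WT replicate 24 had the lowest Ghr, Igf1 and Igfals of all 8 mice, and MøFoxO1-KO replicate 26 had the highest Ghr and Igfals. The log2 ratio of Igfals to Igf1 (from TPM) had group means of 0.22 ± 0.08 in WT and 0.34 ± 0.36 in MøFoxO1-KO livers (SD, n = 4 each), with overlap (exact two-sided permutation test, P = 0.543, and 0.679 adjusted over the 5 ratios). Hepatocyte markers moved in the same direction as Igf1 and Igfals (9 of 10 above 0 on the log2 scale), and their part in these differences was not tested. The antisense gene Igf1os, which overlaps Igf1, had only 10 to 32 counts per mouse.

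**Figure D2:**
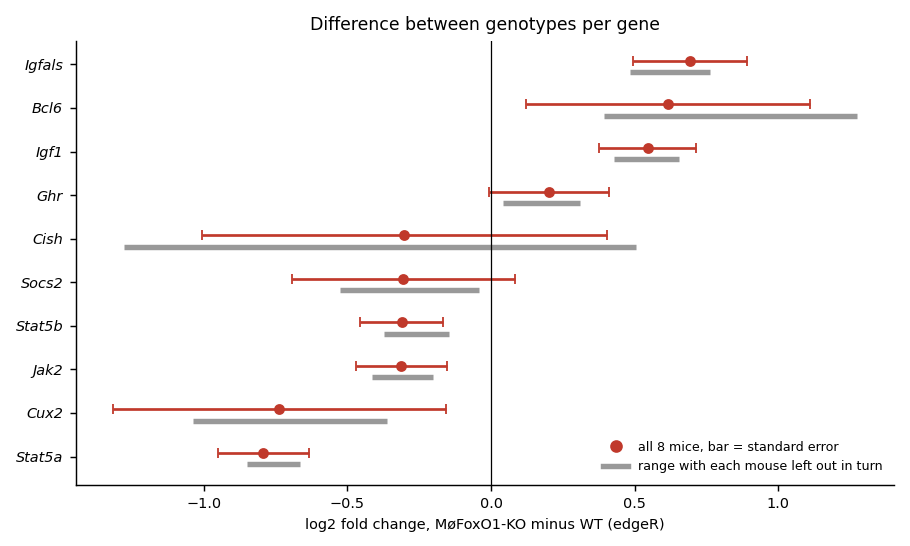
Log2 fold change of each gene, MøFoxO1-KO minus WT (horizontal axis), with its standard error (red) over all 8 mice and the range of the 8 fits that each left out 1 mouse (gray). The range of Cish spans 0, from -1.28 to 0.50, and those of Stat5a, Igf1 and Igfals stay on 1 side of it.

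The feedback inhibitors differed more between mice than between genotypes. Cish (chr9:107296026-107302784, plus strand) encodes an SH2 protein that blocks STAT5 docking on cytokine receptors and is itself an early STAT5 target. Its normalized counts were 30.0, 171, 59.99 and 37.8 in WT replicates 22 to 25 and 46.0, 25.1, 20.9 and 151 in MøFoxO1-KO replicates 26 to 29. WT replicate 23 and MøFoxO1-KO replicate 29 stood far above the other 6 mice, which lay between 20.9 and 59.99. Cish had a log2 fold change of -0.30 ± 0.70 (Benjamini-Hochberg adjusted P = 0.866, edgeR), which became 0.50 when WT replicate 23 was left out and -1.28 when MøFoxO1-KO replicate 29 was left out.

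Socs2 (chr10:95385362-95417180, minus strand) encodes the suppressor of cytokine signaling that limits the growth hormone receptor. It had 127, 87.5, 244 and 196 normalized counts in WT replicates 22 to 25 and 188, 124, 56.9 and 161 in MøFoxO1-KO replicates 26 to 29. The groups overlapped across most of their range, and the log2 fold change of -0.31 ± 0.39 did not pass the test (Benjamini-Hochberg adjusted P = 0.736, edgeR). The log2 fold change was -0.05 with WT replicate 24 left out, and -0.04 and -0.53 when MøFoxO1-KO replicates 28 and 26 were left out in turn. Of the mice with high Cish, WT replicate 23 had the lowest Socs2 of its group and MøFoxO1-KO replicate 29 had more Socs2 than replicates 27 and 28.

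The log2 ratio of Socs2 to Igf1 (from TPM) had group means of -5.34 ± 0.84 in WT and -6.22 ± 0.57 in MøFoxO1-KO livers (SD, n = 4 each, exact two-sided permutation test, P = 0.114, and 0.286 adjusted over the 5 ratios). That of Cish to Socs2 differed by -0.09 (P = 0.886 by the same exact test, 0.886 adjusted).

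Bcl6 and Cux2 encode repressors tied to the sex pattern of liver genes. BCL6, which is more abundant in male liver, competes with STAT5 at its sites (Bcl6, chr16:23965052-23988852, minus strand). Its normalized counts were 258, 197, 297 and 833 in WT replicates 22 to 25 and 815, 631, 767 and 212 in MøFoxO1-KO replicates 26 to 29. Each group was split: WT replicate 25 lay with the 3 high MøFoxO1-KO mice, and MøFoxO1-KO replicate 29 lay with the 3 low WT mice. Bcl6 had a log2 fold change of 0.62 ± 0.49 (Benjamini-Hochberg adjusted P = 0.573, edgeR), and of 1.27 without WT replicate 25 (unadjusted P = 0.0112) and 0.39 without WT replicate 23.

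The mice with the highest Cish of their group, WT replicate 23 and MøFoxO1-KO replicate 29, had the lowest Bcl6 of their group. In WT replicate 23 this was 171 normalized Cish and 197 normalized Bcl6 counts, and in MøFoxO1-KO replicate 29 it was 151 and 212. MøFoxO1-KO replicate 29 also had the highest macrophage and lymphocyte marker sums of the 8 mice (1269 and 55.9 CPM), and WT replicate 23 had the lowest (257 and 10.5). The 2 mice that shared this Cish and Bcl6 pattern were at opposite ends of both marker sums. The part of cell content in this pattern was not tested.

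Cux2 (chr5:121856366-122050102, minus strand) encodes a repressor that is more abundant in female liver. It was near the lower end of what was measured in these male livers, with 12, 4, 14 and 21 raw counts in WT replicates 22 to 25 and 3, 4, 12 and 9 in MøFoxO1-KO replicates 26 to 29. The groups overlapped, and at these counts the log2 fold change of -0.74 ± 0.58 did not exceed the spread between mice (Benjamini-Hochberg adjusted P = 0.566, edgeR), and it became -0.36 with WT replicate 25 left out and -0.47 with MøFoxO1-KO replicate 26 left out. The log2 ratio of Cux2 to Bcl6 (from TPM) differed by -1.41 (exact two-sided permutation test, P = 0.171, and 0.286 adjusted over the 5 ratios).

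Levels of different genes were compared in TPM. Over all 8 mice the mean was 113 TPM for Igfals, 111 for Ghr, 91.1 for Igf1, 17.5 for Stat5b, 8.50 for Bcl6, 5.60 for Jak2, 4.14 for Stat5a, 1.83 for Socs2, 1.25 for Cish and 0.115 for Cux2. Igfals and Ghr cannot be ordered, since Igfals was above Ghr in 4 of 8 mice, nor can Bcl6 and Jak2, where Bcl6 was above in 4 of 8. Ghr was above Igf1 in 7 mice and Socs2 above Cish in 6, and the other neighbours kept their order in all 8. Igf1 stood above 92.0% of the tested genes, and Cux2 above 0.12%.

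**Figure D3:**
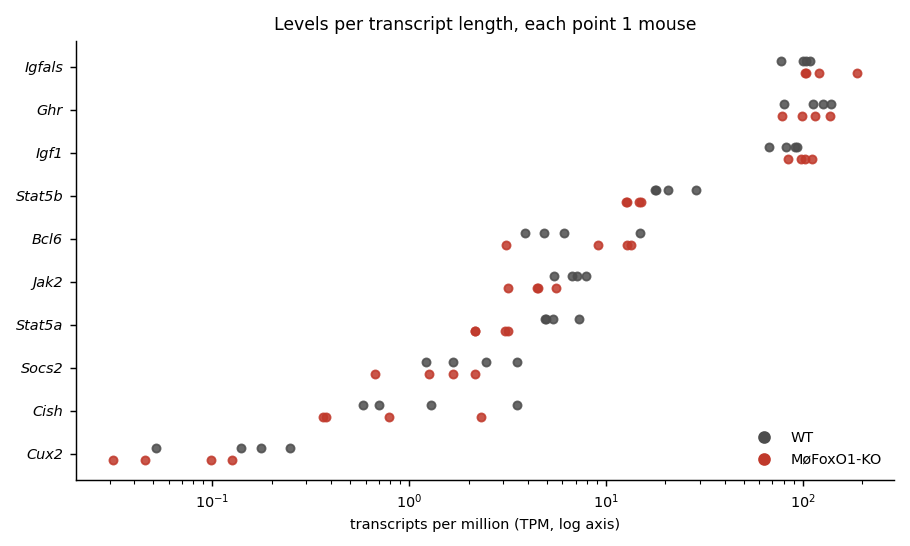
Level of each gene in TPM (horizontal log axis) in WT (gray) and MøFoxO1-KO (red) mice, each point 1 mouse, ordered by the mean of all 8. Igfals, Ghr and Igf1 lie together near 100 TPM and Cux2 lies near 0.1 TPM.

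The scale mattered for some genes. TMM factors were 0.992 to 1.154 in WT and 0.902 to 1.01 in MøFoxO1-KO libraries, and scaling by library totals alone moved the median log2 fold change of all tested genes by -0.15. On that scale all 10 genes kept their sign, Stat5a had a log2 fold change of -0.93 (edgeR, Benjamini-Hochberg adjusted P = 0.0470), Stat5b had -0.46 and Igfals 0.55. In TPM the mean of Ghr was 0.942 times that of WT, against a ratio of 1.151 in TMM-normalized counts, so no direction is given for Ghr. The ratio of means in TPM was 1.18 for Igf1 (exact two-sided permutation test, P = 0.114) and 1.32 for Igfals (P = 0.200 by the same exact test), less than in TMM-normalized counts. In TPM the groups overlapped for Igfals (102.9 to 189 TPM in MøFoxO1-KO and 77.1 to 108 in WT livers), and did not for Stat5a or Stat5b.

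The other genes of the pathway were read from lists written from general knowledge. Of 18 further signaling genes, which include other kinases, transcription factors and adaptors used by cytokine receptors, 17 were tested, with a median log2 fold change of -0.13. Of the 17, 2 had an unadjusted P under 0.05 (edgeR, 11.8%, against 16.7% of all tested genes). Irs2, an insulin receptor substrate, was lower at an unadjusted P under 0.05, with a log2 fold change of -0.65 ± 0.27 (-0.42 without WT replicate 24). Of 18 negative regulators 1 had an unadjusted P under 0.05 (5.56%, against 16.7% of all tested genes), and the median was 0.04. It was Socs1, a JAK inhibitor induced by cytokines, at 1.05 ± 0.44. Socs1 had only 5 to 31 raw counts per mouse. The groups overlapped, with WT replicate 25 at 20.9 and MøFoxO1-KO replicate 29 at 17.9 normalized counts. With 1 mouse left out, the unadjusted P of Socs1 lay between 0.0048 and 0.0958 (edgeR). The adjusted P was 0.259 for Irs2 and 0.267 for Socs1 (edgeR, Benjamini-Hochberg).

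Among 15 genes of the IGF system, which covers IGF2, IGF receptors, binding proteins and their proteases, 11 were tested. Igf2, the fetal growth factor, had 10.3, 8.8, 6.5 and 4.0 normalized counts in WT replicates 22 to 25 and 22.05, 22.7, 26.6 and 24.6 in MøFoxO1-KO replicates 26 to 29. These are low levels that did not overlap, with a log2 fold change of 1.68 ± 0.36 (Benjamini-Hochberg adjusted P = 0.0968, edgeR). Igfbp2, an IGF binding protein, overlapped between groups at 1.48 ± 0.56, or 2.34 without WT replicate 24 (adjusted P = 0.234 by the same edgeR test, Benjamini-Hochberg). The median of the 11 was -0.03, and 2 of them had an unadjusted P under 0.05 (edgeR, 18.2%, against 16.7% of all tested genes).

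Of 18 transcription factors and chromatin proteins that act with STAT5 or on sex-biased genes, all were tested, with a median log2 fold change of -0.17, and 4 had an unadjusted P under 0.05 (22.2%, against 16.7% of all tested genes). Tox, a high mobility group protein, had 100.2, 104, 120.0 and 202 normalized counts in WT replicates 22 to 25 and 57.5, 47.8, 74.0 and 51.5 in MøFoxO1-KO replicates 26 to 29. All MøFoxO1-KO mice were below all WT mice for Tox, at a log2 fold change of -1.18 (edgeR, Benjamini-Hochberg adjusted P = 0.102). Trim24, a cofactor of nuclear receptors, had -0.59, Egr1, an immediate early factor, had -1.34 (-0.61 without WT replicate 24) and Foxa3, a liver forkhead factor, had 0.37, with adjusted P values between 0.165 and 0.282 by the same edgeR test with Benjamini-Hochberg adjustment.

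Genes with a sex bias in mouse liver, a known outcome of growth hormone and STAT5, had larger median folds than the members. Of 24 male-biased genes, 23 were tested, and 18 were higher and 0 lower at an unadjusted P under 0.05. By edgeR with Benjamini-Hochberg adjustment, 5 of them rose in MøFoxO1-KO livers. In the list of 30 female-biased genes, 20 were tested, 0 were higher and 17 lower at an unadjusted P under 0.05, and 7 fell by the same adjusted test. Without WT replicate 25, 0 male-biased and 2 female-biased genes passed the adjusted test, and DESeq2 passed 14 and 12. Over all tested genes, 8.65% were higher and 8.06% lower at an unadjusted P under 0.05 in edgeR. After adjustment, 0.294% of tested genes passed in edgeR and 4.42% in DESeq2. All 23 male-biased genes had a fold above 0 on the log2 scale and all 20 female-biased genes had a fold below 0, and the medians were 1.61 and -1.91. All mice were male, so this is a difference among males. The lists hold genes seen in earlier results of these data, so neither the size nor the direction of their folds is independent evidence.

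The filter on low counts keeps genes through the group where they are high, so the untested genes are given too. Moxd1, the male-biased gene left out, had 0 counts in all WT mice, and its counts in MøFoxO1-KO replicates 26 to 29 were 79, 71, 0 and 2. Of the 10 female-biased genes left out, 2 had 0 counts in every mouse, 7 had more raw counts in WT than in MøFoxO1-KO livers and 1 had fewer. Prom1 was counted as higher in WT at 43 against 41 raw counts. Its mean in normalized counts was 10.3 in WT and 10.9 in MøFoxO1-KO livers. With no filter the medians were 1.80 over 24 male-biased genes and -2.48 over the 28 female-biased genes that had a count. Several Mup and Cyp genes of these lists are near-identical copies, among which the counting could have split reads, so single values of those genes are uncertain.

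The male-biased genes with the smallest P values were Hsd3b5, a steroid dehydrogenase of male liver, Mup1 and Mup12, which encode major urinary proteins, and Susd4, a complement regulator. Susd4 had 118, 69.8, 114 and 136 normalized counts in WT replicates 22 to 25 and 1032, 787, 353 and 471 in MøFoxO1-KO replicates 26 to 29, and the groups were well apart (6.03-fold higher, edgeR, Benjamini-Hochberg adjusted P = 0.0171). Hsd3b5 had at most 45.2 normalized counts in WT mice and between 775 and 3756 in MøFoxO1-KO mice. The smallest P values of the female-biased genes belonged to Cd36, a fatty acid transporter, Cyp2c38 and Cyp2a4, cytochromes P450, and Slc22a27, an organic anion transporter. Slc22a27 had 359.7, 297, 161 and 319.6 normalized counts in WT replicates 22 to 25 and 41.2, 20.3, 56.0 and 35.8 in MøFoxO1-KO replicates 26 to 29, with no overlap (a log2 fold change of -2.87, edgeR, Benjamini-Hochberg adjusted P = 0.0136).

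**Figure D4:**
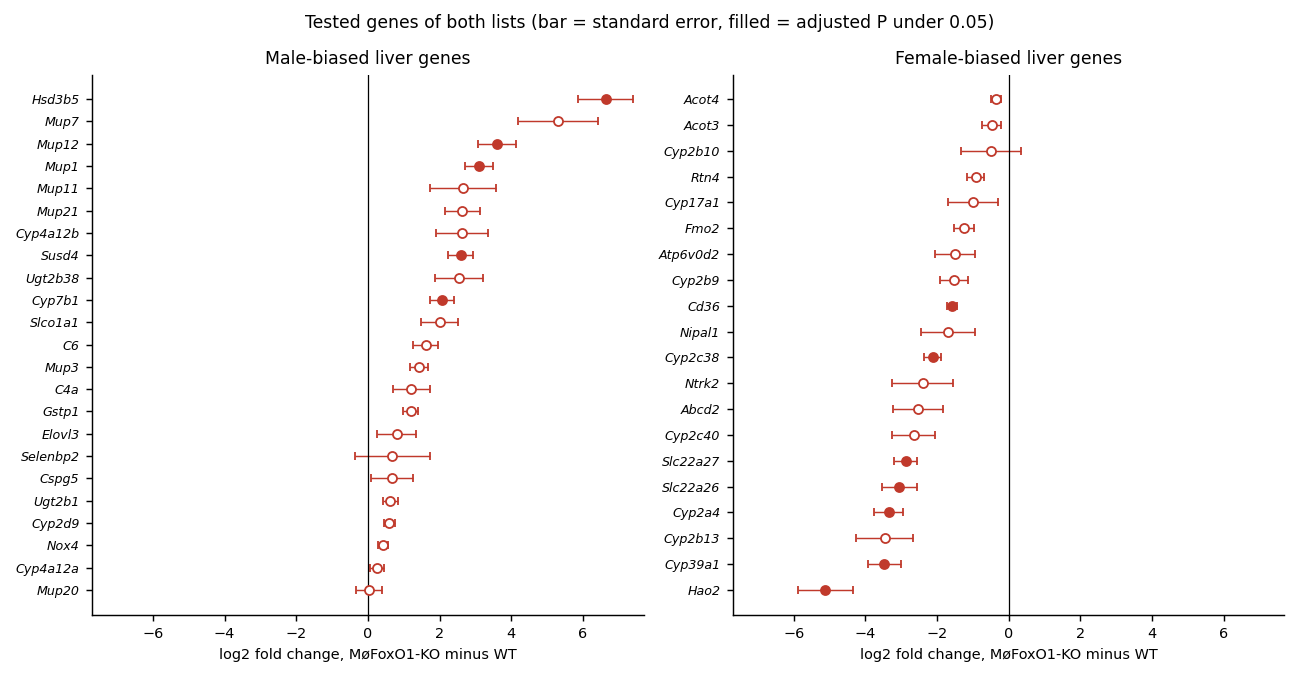
Log2 fold change, MøFoxO1-KO minus WT (horizontal axis), with its standard error for the 23 tested male-biased genes (left) and the 20 tested female-biased genes (right). Filled points had an adjusted P under 0.05, and the male-biased genes all lie above 0 and the female-biased genes all under 0.

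The sex-biased lists did not split the mice as Bcl6 did. The median centered level of the male-biased genes (log2 scale, each gene relative to its mean over the 8 mice) was -1.37 to -0.59 in WT and 0.47 to 1.39 in MøFoxO1-KO mice, and that of the female-biased genes was 0.26 to 1.31 in WT and -1.41 to -0.62 in MøFoxO1-KO mice. Neither list overlapped between the groups. The lists hold genes seen in earlier results of these data, so this separation is not independent evidence. No conclusion about Bcl6 is drawn from it. WT replicate 25, with its high Bcl6, stood at -0.90 for the male-biased genes, and MøFoxO1-KO replicate 29, with its low Bcl6, stood at 0.59.

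Genes whose normalized values ran most like those of Stat5a over the 8 mice (Pearson's r of log2 values) were Gga2 (r = 0.989), Zfyve27 (0.985), Ugdh (0.984), Eno1 (0.980) and Anp32a (0.978), with Spearman's rho between 0.929 and 0.976. For Igfals, the member with the highest mean TPM, they were Dusp19 (r = 0.982), Sdc2 (0.960), Hbs1l (0.958), 6430573P05Rik (0.957) and Nit2 (0.944), with rho between 0.714 and 0.952. These are the extremes of 13278 genes over 8 mice of different genotype, and the points share their libraries, so no test is given.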

How the data were processed

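Liver RNA of 4 MøFoxO1-KO and 4 WT mice was measured as polyadenylated RNA. The authors deposited raw counts per Ensembl gene, without normalization. The submitters' processing notes name STAR, featureCounts and mm10, and the strand setting and how multi-mapping reads were handled are not given in the sources used here. Symbols were matched through GENCODE M21 for 46005 of 46517 genes. The deposited exon length of each gene, a value other than a count, was used for TPM.

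Genes were filtered with filterByExpr (minimum count 10, minimum total 15), scaled with TMM factors and compared by edgeR 4.0.16 (R 4.3.3) in a quasi-likelihood fit of genotype alone, with Benjamini-Hochberg adjustment over 13278 genes. Total counts of 15253218 to 18025481 per mouse limit the precision for genes with few counts. Normalized counts and ratios were compared by exact two-sided permutation tests (scipy 1.17.1). Alternatives were DESeq2 1.42.0, limma-voom (limma 3.58.1), other size factors, filters and a robust fit, leaving out each mouse, and, chosen after seeing the data, library totals without TMM. Gene starts and sequences are from RefSeq on GRCm38.p6.

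The members and lists were chosen with earlier results of these data known. Named genes are the 10 members, in each list up to 4 genes of smallest P that were called (or, if none, at an unadjusted P under 0.05), and for Stat5a and Igfals the 5 genes of highest Pearson's r. A gene of the signaling list that this rule names is not reported here.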

Additional observations from a re-analysis of the deposited data

Results flagged for a closer look

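In a group of 4 mice, the highest or lowest mouse was set apart where its gap to the nearest mouse divided by the range of the group exceeded Dixon's limit for 4 samples. This held in 6 of the 20 groups of 4 examined for the 10 genes. The limit is passed by chance in about 1 in 20 groups only where values are normally distributed and groups are independent. Here the counts were not put on a log scale and the groups of different genes shared the same mice. The 6 of 20 are therefore not read as an excess over chance, and the share over all tested genes was not examined. WT replicate 23 was the highest of its group for Stat5a (391 normalized counts, others 278 to 297) and for Stat5b (1201, others 791 to 822). WT replicate 24 was the lowest of its group for Igfals (1176, others 1725 to 1770.1). WT replicate 25 was the highest of its group for Bcl6 (833, others 197 to 297). MøFoxO1-KO replicate 28 was the lowest of its group for Igf1 (7479, others 10001 to 10249), and MøFoxO1-KO replicate 26 was the highest for Igfals (3631, others 2203 to 2270.1).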

How the results depend on the processing

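Signs of 9 members held in the other fits run for each (16, or 15 for Cux2, which had too few counts for the filter of 10 counts in every mouse). The exception was Cish, at 0.01 without MøFoxO1-KO replicate 28 and 0.50 without WT replicate 23 on the log2 scale (-1.28 without MøFoxO1-KO replicate 29). The genes called over all tested genes were 25 in edgeR, 144 in DESeq2, 13 in limma-voom, 120 with no filter on low counts, 39 with no limit on the fold change and between 3 and 82 with 1 mouse left out. Members with an adjusted P under 0.05 (Benjamini-Hochberg) were 0 in edgeR, 3 in DESeq2 (Stat5a, Igf1 and Igfals), 1 with no filter (Stat5a) and 1 by library totals (Stat5a). Members at an unadjusted P under 0.05 were 5 by library totals (22.01% of tested genes) and 3 to 5 with 1 mouse left out (10.7 to 16.9% of tested genes), and those without overlap 3 to 5. With 1 mouse left out, the highest of these counts came without WT replicate 25, which added Stat5b and Bcl6 by P and Jak2 and Igf1 by overlap. Smaller groups separate more easily, and the share of all tested genes without overlap is not given for these fits. The share of all tested genes past the adjusted threshold is not given for the fits with no filter and by library totals. No excess of members is read from these counts. Female-biased genes lower at an unadjusted P under 0.05 were 11 of 13 when at least 10 counts were asked of every mouse, against 17 of 20. The difference in log2 ratio of Igfals to Igf1 (0.13) was between -0.016 and 0.24 and that of Cish to Socs2 (-0.09) between -0.55 and 0.69 with 1 mouse left out. That of Socs2 to Igf1 (-0.88) was -0.52 without WT replicate 24, and that of Cux2 to Bcl6 (-1.41) was -0.84 without MøFoxO1-KO replicate 26 and -2.09 without replicate 29. The cause of these shifts was not tested. All male-biased genes lay above 0 in every fit, except 1 gene by library totals and in 4 fits with 1 mouse left out, and all female-biased genes lay under 0 in every fit. No paired analysis was possible because the replicate numbers 22 to 25 and 26 to 29 are not shared between the groups.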
